A study of Mus musculus with 6 samples.

Results

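Voltage-gated calcium channels turn a change in membrane voltage into calcium entry. Each channel has a pore-forming alpha1 subunit, which sets the type of current, and most bind an extracellular alpha2delta subunit and a cytoplasmic beta subunit, which help to bring the channel to the membrane and tune its gating. In the cochlea they are known for driving transmitter release from hair cells, and spiral ganglion neurons use several types in their cell bodies, axons and central endings. The genes described here are 10 of this family: the alpha1 genes Cacna1a, Cacna1b, Cacna1c, Cacna1d, Cacna1g and Cacna1h, the alpha2delta genes Cacna2d1 and Cacna2d2, and the beta genes Cacnb3 and Cacnb4. Members were all probe sets annotated to exactly 1 of these genes, whatever their signal. This gave 26 probe sets of 9 genes, out of 45037 on the array without controls. No probe set carried the name of Cacnb3 alone in the annotation used here, so Cacnb3 has no value below.

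Messenger RNA came from the modiolus, the bony core of the cochlea that holds the spiral ganglion, of 6 CBA/CaJ mice, with both ears of a mouse pooled and 1 Affymetrix mouse genome array per mouse. The noise-exposed group was 3 female mice of litter 7, which heard noise of 5 to 20 kHz at 110 dB SPL for 5 h when 4 weeks old. They were killed 29 days later, at 57 days of age. The unexposed group was 3 mice kept in the holding room without elevated noise and killed at 53 to 59 days: replicate 1 was a male of litter 8, replicate 2 a female of litter 10 and replicate 3 a male of litter 11. Litter and exposure cannot be told apart. Unexposed replicate 1 was dissected on the same day as the noise-exposed mice, and unexposed replicates 2 and 3 on a later day. The labels name no transgene or other allele.

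Signals are log2 values. The authors separated signal from background at a cutoff that equals a linear signal of 19.0, and 24671 to 25371 probe sets of an array exceeded it. Defining neuronal genes (Tubb3, Nefl, Nefm and others, 10 of 11 tested) were well above it, and their summed linear signal overlapped between the groups, at 22342 to 25191 in noise-exposed and 22157 to 25584 in unexposed mice. Within that list Tubb3 (log2 fold change 0.48) lay higher and Map1b (-0.62) lower in every noise-exposed mouse, and neither was called. Among hair cell markers Myo7a, Otof, Pou4f3 and Slc26a5 lay below the cutoff on all 6 arrays. Gfi1 exceeded it on some arrays, but on fewer than the 3 needed for testing, and Slc17a8 was not on the array. Myo6, which other cells also express, was the 1 gene tested. The oligodendrocyte list (5 of 6 tested, Opalin below the cutoff) did not overlap, at 5984 to 6278 against 4961 to 5625. Nor did the Schwann cell and satellite glia list (5 of 8 tested), at 10996 to 11221 against 11299 to 11898, of which Pmp22 made up 84.1% to 88.7%. Without Pmp22 that sum overlapped, at 1431 to 1651 against 1348 to 1799, and the groups overlapped for each of its 5 genes, with 2 log2 fold changes above 0, the higher one Sox10 at 0.46. Without its brightest gene Cnp the oligodendrocyte sum still did not overlap, at 1733 to 2097 against 932 to 1353. Of its 5 tested genes 4 lay above 0 and 1 below. The groups did not overlap for Mobp (log2 fold change 0.78) and Mog (0.51), beside 13.5% of all tested probe sets. They overlapped for Olig1, Mag and Cnp. None of the 5 was called. The part of these cell types in the values below was not tested. In such mixed tissue fewer cells of a type and less RNA per cell cannot be told apart.

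The first question was which of these channel genes gave a signal in the modiolus. Of the 26 probe sets, 14 lay above the cutoff on all 6 arrays, 2 on some arrays and 10 on none. They gave 7 genes with a probe set above it on every array: the P/Q-type gene Cacna1a, the N-type gene Cacna1b, the L-type genes Cacna1c and Cacna1d, both alpha2delta genes and the beta gene Cacnb4. At the higher level of 5.1, which the authors used for their 17-array table, 10 probe sets of 6 genes were above it on every array, and Cacna1b was no longer among them. The T-type genes Cacna1g and Cacna1h, whose channels open near the resting potential, lay below it on all arrays. For Cacna1g the 6 values ran from 3.12 to 3.80. For the brighter probe set of Cacna1h they ran from 3.10 to 3.64 and for the other from 2.61 to 2.82. These values bound the signal of those probe sets and do not show that the genes are silent.

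**Figure D1:**
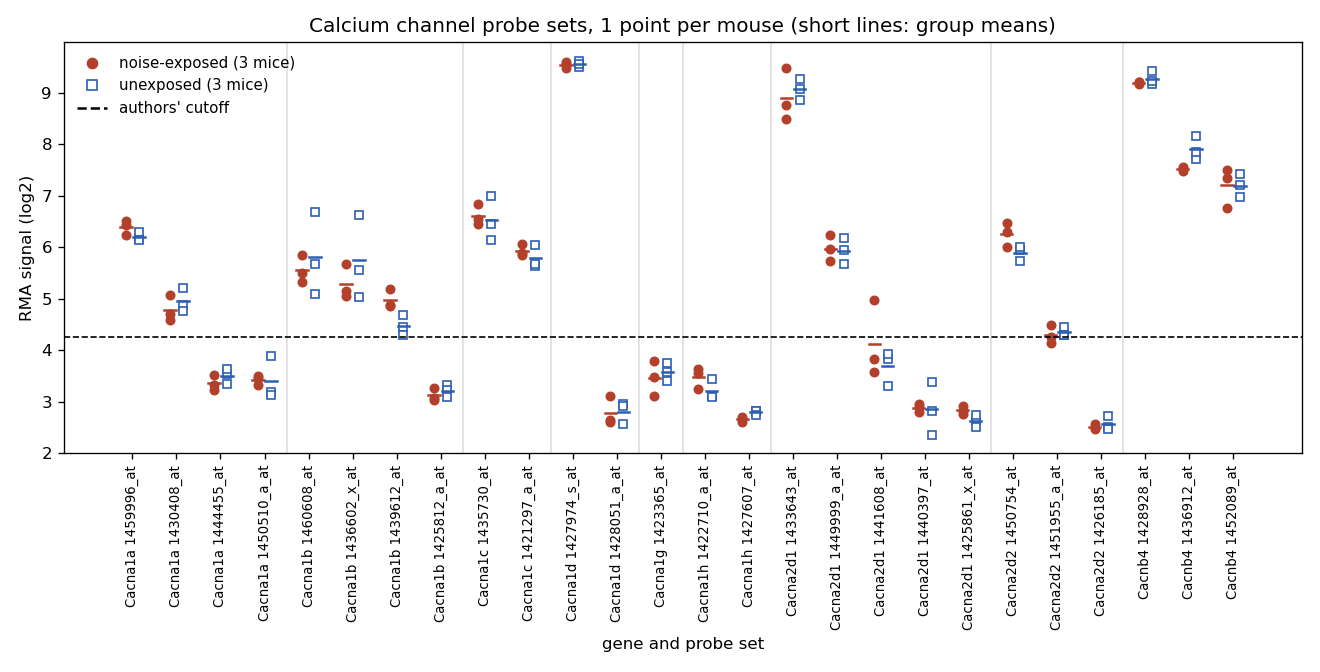
RMA signal (log2, vertical axis) of each of the 26 probe sets (horizontal axis, ordered by gene), with 1 point per mouse, filled for noise-exposed and open for unexposed; short lines are group means and the dashed line is the authors' cutoff. Cacna1g and Cacna1h lie below the line on every array, and the groups overlap for most probe sets above it.

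The second question was whether the genes differed between noise-exposed and unexposed modioli. No member passed the test: limma with Benjamini-Hochberg adjustment over 25200 probe sets called 0 of the 15 tested member probe sets, beside 0% of all tested. Tested probe sets were those above the cutoff on at least 3 arrays. At an unadjusted p under 0.05 there were 2 of 15, beside 7.07% of all. Log2 fold changes, noise-exposed minus unexposed, ran from -0.45 to 0.50, with 7 above 0 and 8 below 0 and a median of -0.012. Over all tested probe sets 56.3% lay above 0 and the median was 0.038. The lowest adjusted p among the members was 0.669. The groups did not overlap for 2 of 15, 1 probe set of Cacna1b that was higher and 1 of Cacnb4 that was lower in noise-exposed mice, beside 13.5% of all tested probe sets (8.47% higher and 5.02% lower). Without noise-exposed replicate 3, and likewise without unexposed replicate 2, the count was 5 of 15, beside 24.6% and 29.6% of all tested. Without any 1 of the other 4 arrays it was 3, beside 19.9% and 21% for noise-exposed replicates 1 and 2 and 25.7% and 23.8% for unexposed replicates 1 and 3. It was 10 on the first dissection day alone and 6 in females alone, where the 3 noise-exposed mice are set against 1 unexposed mouse, beside 58.1% and 62% of all tested. After repeated quantile normalization or with array medians subtracted it was 3, beside 13.8% and 15.1%. With no filter on low signal it was 4 of 26, beside 11.6% of 45037, and it was 2 of 14, beside 13.8%, when detection on every array was required.

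**Figure D2:**
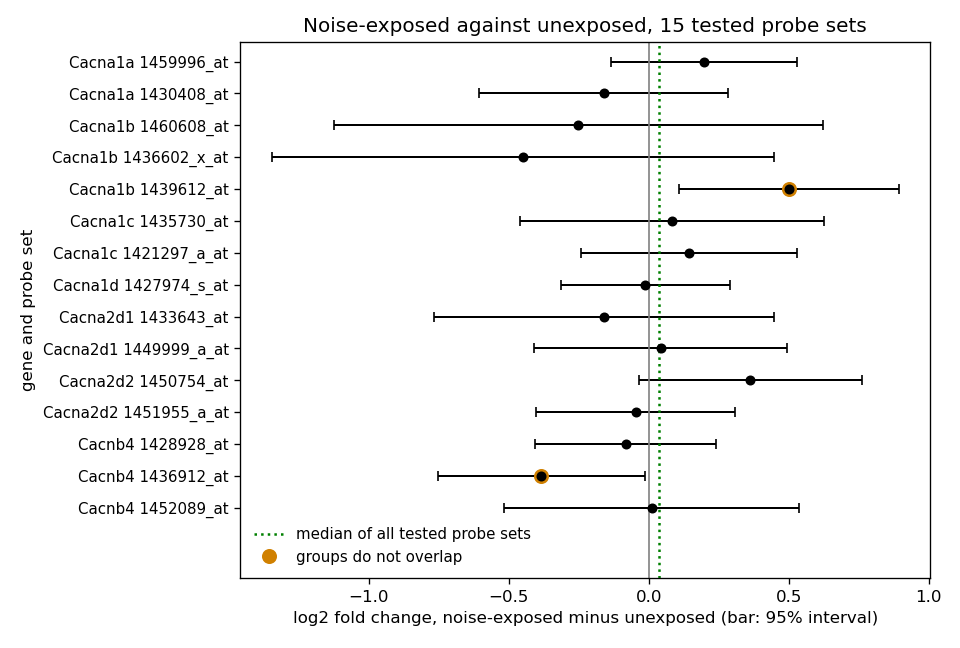
Log2 fold change (horizontal axis, noise-exposed minus unexposed) with its 95% interval for the 15 tested probe sets; the dotted line is the median of all tested probe sets, 0.038. The intervals of 13 probe sets hold 0, and the 2 marked points are the probe sets whose groups do not overlap.

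Cacna1d encodes the pore of an L-type channel that opens at relatively negative voltages and carries most of the calcium current of inner hair cells. Its detected probe set (1427974_s_at) read 9.60, 9.49 and 9.55 in noise-exposed and 9.51, 9.62 and 9.55 in unexposed mice. The 6 mice lay within 0.13 of each other, the narrowest range among the tested member probe sets. The difference was -0.012 (log2, SE 0.13), with a 95% interval from -0.32 to 0.29. Its sign turned without noise-exposed replicate 2 or without unexposed replicate 2, to 0.017 each. The other probe set (1428051_a_at) lay below the cutoff on all arrays, between 2.56 and 3.10. The signal was thus read from 1 of the gene's 2 probe sets. In this tissue 4 of the 6 hair cell markers on the array lay below the cutoff on all arrays. Which transcripts 1427974_s_at reports was not analysed here. The named genes whose values over the 6 arrays followed it most closely were Adck1 (Pearson r = 0.99), E430024I08Rik (0.99), Prrt3 (0.98) and Rgs11 (0.98). These likenesses are over 6 arrays normalized together and rest on differences of at most 0.13 in Cacna1d itself.

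Cacna1c encodes the pore of the L-type channel of heart and smooth muscle, which many neurons also express. Its brighter probe set (1435730_at) read 6.54, 6.46 and 6.83 in noise-exposed and 6.45, 6.99 and 6.14 in unexposed mice. Unexposed replicates 2 and 3 held the highest and the lowest value of all 6, so the groups overlapped fully. This gave a log2 fold change of 0.083 with an SE of 0.23 (limma adjusted p = 0.939), and it was -0.028 without noise-exposed replicate 3 and -0.11 without unexposed replicate 3. The second probe set (1421297_a_at) ran from 5.84 to 6.06 in noise-exposed and from 5.63 to 6.05 in unexposed mice (log2 fold change 0.14, SE 0.17). The smooth muscle and pericyte list (7 of 8 tested, Cnn1 below the cutoff) had a summed linear signal of 1769 to 2094 against 1949 to 2664. Rgs5 made up 49.8% to 64.5% of that sum, which without it was 720 to 888 against 714 to 1004. The list's gene with the lowest p was Myocd, which encodes the smooth muscle transcription factor myocardin, at -1.32 (limma adjusted p = 0.562). Of the 7 tested genes 2 lay above 0 and 5 below, and the groups overlapped for all but Myocd. The part of smooth muscle in the Cacna1c values was not tested.

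Cacna1a encodes the pore of the P/Q-type channel, which triggers transmitter release at many central synapses. The brightest probe set (1459996_at) read 6.44, 6.51 and 6.24 in noise-exposed and 6.16, 6.29 and 6.15 in unexposed mice. The lowest noise-exposed value lay below the highest unexposed one. The noise-exposed mean exceeded the unexposed one by 0.20 (log2, SE 0.14), with a 95% interval of -0.14 to 0.53 (limma adjusted p = 0.759). The second detected probe set (1430408_at) read 5.08, 4.58 and 4.71 against 5.21, 4.87 and 4.77, which gives -0.16 (SE 0.19), so the gene's detected probe sets had opposite signs. The other 2 lay below the cutoff on all arrays. Cacna1a is the only member in the authors' receptor selection, where all 4 of its probe sets appear. Over 17 arrays, among them 11 of other series, the authors' deposited table gives probe set 1459996_at a mean of 6.70, with a corrected p of 7.49e-05 against a level of 5.1. For 1430408_at the authors' deposited table has a mean of 5.67 (corrected p = 0.0166), and for the other 2 a corrected p of 1.

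Cacna1b encodes the pore of the N-type channel, which supports transmitter release from many sensory and autonomic neurons. Its 3 detected probe sets differed in pattern. The brightest (1460608_at) read 5.86, 5.50 and 5.32 in noise-exposed and 5.09, 5.67 and 6.68 in unexposed mice. A second (1436602_x_at) read 5.67, 5.06 and 5.15 against 5.03, 5.57 and 6.63. In both, unexposed replicate 3 was the highest array and unexposed replicate 1 the lowest, with a range near 1.59 that no other tested member approached. Their log2 fold changes were -0.25 (SE 0.38, limma adjusted p = 0.876) and -0.45 (SE 0.39), and without unexposed replicate 3 the first was 0.18. An ending in x marks a probe set with probes that can also bind other transcripts.

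Of the detected probe sets of Cacna1b the dimmest (1439612_at) read 4.87, 5.20 and 4.86 in noise-exposed and 4.44, 4.30 and 4.68 in unexposed mice. Every noise-exposed value lay above every unexposed one, and unexposed replicate 3 did not stand out. The difference of 0.50 (log2, SE 0.17, 95% interval 0.11 to 0.89) equals a ratio of 1.41, and it did not pass the test (limma adjusted p = 0.669). An exact two-sided permutation test gave p = 0.1, the smallest that 3 against 3 mice allow. Every probe set whose groups do not overlap has this p, so it adds nothing to the separation. The difference was 0.53 against unexposed replicate 1 alone, the mouse of the same dissection day, and 0.67 against unexposed replicate 2 alone, the other female. All values of this probe set lay within 1 unit above the cutoff, and the fourth probe set (1425812_a_at) lay below it, between 3.03 and 3.33. The named genes most like 1460608_at over the 6 arrays, looked up after its values were seen, were Fbll1 (r = 0.99), Castor2 (0.98), Chac1 (0.98) and Rabgap1l (0.98). Of these Chac1 ran from 3.97 in unexposed replicate 1 to 5.20 in unexposed replicate 3.

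**Figure D3:**
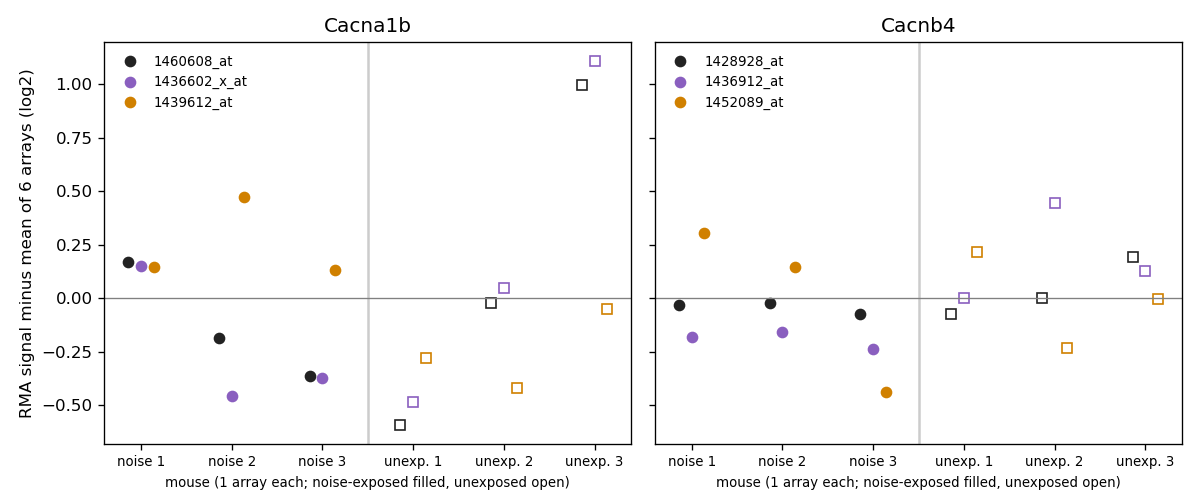
Signal of each detected probe set of Cacna1b and Cacnb4 minus its own mean over the 6 arrays (log2, vertical axis), by mouse (horizontal axis), filled for noise-exposed and open for unexposed. Probe sets 1460608_at and 1436602_x_at of Cacna1b move together and peak in unexposed replicate 3, while 1439612_at is higher in all 3 noise-exposed mice. For Cacnb4 1 of the 3 probe sets, 1436912_at, is lower in all 3 noise-exposed mice.

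The DNA upstream of Cacna1d and Cacna1b is shown because they are the tested members with the narrowest and the widest range over the mice. Each run is from RefSeq (GRCm38.p6), on the minus strand, 5′ to 3′, and ends at the outer edge of the annotated gene. The Cacna1d run is chr14:30491157-30491406 and the Cacna1b run is chr2:24763201-24763402. Capitals mark GGGCGG (the GC box bound by Sp factors) and TATAAA (the TATA box), searched on both strands together with TGACGTCA, the cyclic AMP response element.
Cacna1d: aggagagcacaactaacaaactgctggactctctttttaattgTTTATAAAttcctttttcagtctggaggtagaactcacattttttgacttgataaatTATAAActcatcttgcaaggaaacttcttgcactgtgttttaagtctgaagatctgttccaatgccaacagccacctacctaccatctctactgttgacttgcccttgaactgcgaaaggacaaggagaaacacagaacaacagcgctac
Cacna1b: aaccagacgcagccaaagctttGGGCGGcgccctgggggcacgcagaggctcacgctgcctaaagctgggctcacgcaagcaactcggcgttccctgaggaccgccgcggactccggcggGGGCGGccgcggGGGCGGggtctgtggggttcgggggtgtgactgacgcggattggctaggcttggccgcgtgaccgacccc
The Cacna1d run of 250 bases held 39.6% G and C, 2 CpG pairs, no GC box and 3 TATA matches, a pair of which overlap on opposite strands. All 3 lie nearer the upstream end of the run than the gene, and whether they act as TATA boxes was not tested. The Cacna1b run of 202 bases held 71.8% G and C, 23 CpG pairs, 3 GC boxes and no TATA match. Neither held the cyclic AMP element. Of 32851 RefSeq promoter windows, 32.7% held a GC box, 12.4% a TATA match and 1.55% the cyclic AMP element over 250 bases. Over the 202 bases next to each start the shares were 31.1%, 10.1% and 1.48%. The Cacna1b run instead leaves out the 48 bases next to its start, so its stretch is not the same. The median G and C content was 52.4% over 250 bases. Cacna1d has a second annotated start, whose window of 250 bases held 86.4% G and C and 5 GC boxes. Windows were found for 7 of the 10 genes, 13 in all, of which 7 held a GC box.

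Cacnb4 encodes a beta subunit, whose loss causes the lethargic mouse with ataxia and seizures. Its brightest probe set (1428928_at) read 9.21, 9.21 and 9.16 in noise-exposed and 9.16, 9.24 and 9.43 in unexposed mice. These differed by -0.083 (log2, SE 0.14), with an interval from -0.41 to 0.24, and by -0.14 without unexposed replicate 1 and -0.0061 without unexposed replicate 3. Probe set 1436912_at read 7.54, 7.56 and 7.48 against 7.72, 8.16 and 7.85. Every noise-exposed mouse was below every unexposed mouse, and the 3 noise-exposed values lay close together (SD 0.039 against 0.23, n = 3 each). Their difference was -0.38 (log2, SE 0.16, 95% interval -0.75 to -0.014), a ratio of 0.766, and it did not pass the test (limma adjusted p = 0.704). The exact two-sided permutation p of 0.1 was fixed by the lack of overlap. Against unexposed replicate 1 alone, of the same day, the difference was -0.19. Against unexposed replicate 2 alone, of the same sex, it was -0.64, and without that mouse -0.26. The remaining probe set (1452089_at) read 7.51, 7.35 and 6.77 against 7.42, 6.97 and 7.20, which differ by 0.010 (log2, SE 0.23). RefSeq annotates 3 starts for Cacnb4, and which of its transcripts each probe set reports was not analysed here.

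**Figure D4:**
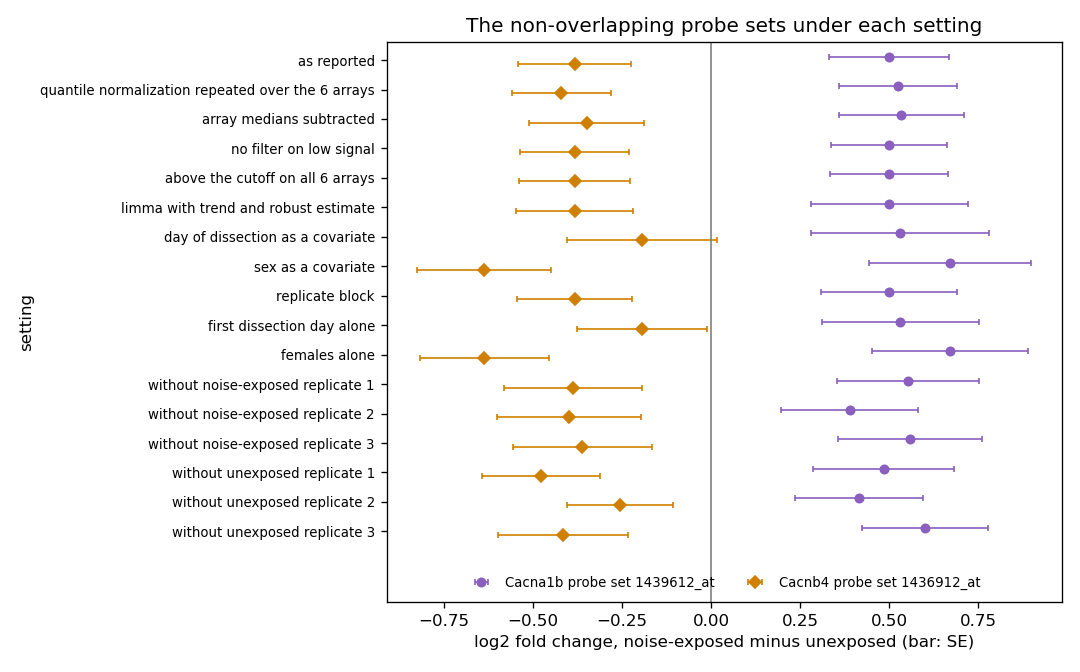
Log2 fold change with its SE (horizontal axis) of the probe sets of Cacna1b and Cacnb4 whose groups do not overlap, under each setting of the fit (vertical axis). The Cacna1b probe set ran from 0.39 to 0.67 and the Cacnb4 probe set from -0.64 to -0.19. Both were chosen because their groups do not overlap, so settings that leave out mice could not turn the sign.

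Cacna2d1 encodes an alpha2delta subunit that binds gabapentin, and in rat sensory ganglia it is known to rise after nerve injury. Its brightest probe set (1433643_at) read 8.49, 8.75 and 9.48 in noise-exposed and 8.87, 9.26 and 9.07 in unexposed mice. The noise-exposed mice held both the lowest and the highest value. On average they differed by -0.16 (log2, SE 0.26, 95% interval -0.77 to 0.45), and by 0.048 without noise-exposed replicate 1. The second probe set (1449999_a_at) read 6.23, 5.73 and 5.96 against 6.18, 5.94 and 5.67 (log2 fold change 0.043, SE 0.19). Another (1441608_at) lay above the cutoff on 1 array, noise-exposed replicate 3 at 4.98, the mouse that was also highest on 1433643_at, and was not tested. The other 2 lay below the cutoff on all arrays, between 2.36 and 3.39.

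Cacna2d2 encodes an alpha2delta subunit whose loss causes the ducky mouse, with ataxia and epilepsy. Its detected probe set (1450754_at) read 6.30, 6.002 and 6.47 in noise-exposed and 5.73, 5.94 and 6.01 in unexposed mice. The groups overlapped narrowly, between noise-exposed replicate 2 and unexposed replicate 3. Noise-exposed mice averaged 0.36 more (log2, SE 0.17, 95% interval -0.036 to 0.76), which did not pass (limma adjusted p = 0.708). A second probe set (1451955_a_at) lay near the cutoff, between 4.14 and 4.50 and above it on 5 arrays, with a difference of -0.047 (SE 0.15). The last lay below it, between 2.47 and 2.72.

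Of the 6 genes with more than 1 tested probe set, 5 had log2 fold changes of both signs. By the brightest probe set per gene, 3 of the 7 genes lay above 0 and 4 below, with a median of -0.012, beside 7504 of 11861 genes above 0 and a median of 0.073 over all genes. In simulated data with the spread of these arrays limma called 21 of 100 probe sets that differed by 1 on the log2 scale and 77 of 100 that differed by 2. Only these probe sets among 25200 were changed. They were drawn from the whole array, so the counts are not those of the member genes.

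Other genes named as subunits of the family gave no call either (limma, 0 of 10 tested genes, and 0 at an unadjusted p under 0.05). They were listed by gene name, and whether the products of the Cacng genes serve these channels was not examined. Of 16 listed genes 15 were on the array, and Cacna1f, Cacna1s, Cacng1 and Cacng3 lay below the cutoff on every array. The 10 tested had 5 log2 fold changes above 0 and 5 below, with a median of 0.0063. Cacng7 was at 0.27, Cacna2d3, an alpha2delta gene needed for normal hearing in mice, at 0.25, Cacng8 at -0.25, and Cacnb2, the main beta subunit of inner hair cell channels, at 0.16. Cacna2d3 read 9.44, 9.42 and 8.87 against 9.14, 9.24 and 8.60, so the groups overlapped.

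A list of channel-binding and release-site genes, which also held Nalcn, the gene of a separate channel, had 7 of 16 tested above 0 and 9 below. Its median was -0.0036, close to Nalcn at -0.0072, and none was called. At an unadjusted p under 0.05 there was 1, Rem2, beside 7.07% of all tested probe sets. The summed linear signal of the list was 11701 to 12297 in noise-exposed and 12571 to 12876 in unexposed mice. Snap25, a membrane fusion protein whose own groups overlapped, made up 63.9% to 71.3% of it. Without Snap25 the sums overlapped, at 3871 to 4151 against 3701 to 4623. Rem2, a small GTPase that inhibits these channels, read 3.67, 4.01 and 3.87 against 4.44, 4.31 and 4.87. The noise-exposed values are all under the cutoff, so the difference is only bounded. Rem2 was tested only because all 3 unexposed values exceeded the cutoff. Rims1, the active zone scaffold that tethers channels to vesicles, read 8.97, 9.00 and 8.94 against 9.07, 9.56 and 9.20, which differ by -0.31 (log2, SE 0.17, limma adjusted p = 0.715). As with Cacnb4 1436912_at, unexposed replicate 2 was the highest array for Rims1. Cabp2, a calcium-binding regulator of hair cell channels, was at 0.43 and Stac2 at 0.27.

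Other calcium channels, pumps and exchangers had 9 of 15 tested above 0 with a median of 0.019, and none was called. Slc8a1, a sodium-calcium exchanger, read 6.20, 6.44 and 5.96 against 5.21, 6.01 and 5.16 (log2 fold change 0.74, SE 0.26, adjusted p = 0.672). Atp2b3, a plasma membrane calcium pump, was at 0.32 with no overlap of the groups, Itpr3 at 0.37 and Atp2b1 at -0.33. Atp2a2, the brightest gene of the list, was at -0.093, and its groups did not overlap either. Calcium buffers and kinases had 8 of 11 above 0 with a median of 0.034, and none was called. S100b, a calcium-binding protein of glia, was at 0.32 with no overlap of the groups (limma adjusted p = 0.704). Camk2b and Camk2g were at 0.29 each and Hpcal1 at 0.18, and their groups overlapped. At an unadjusted p under 0.05 there was 1 pump or exchanger, Slc8a1, and 1 buffer, S100b, beside 7.07% of all tested probe sets. Groups without overlap were found for 13.5% of all tested probe sets. The medians of these lists lay below the median of all genes, 0.073.

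**Figure D5:**
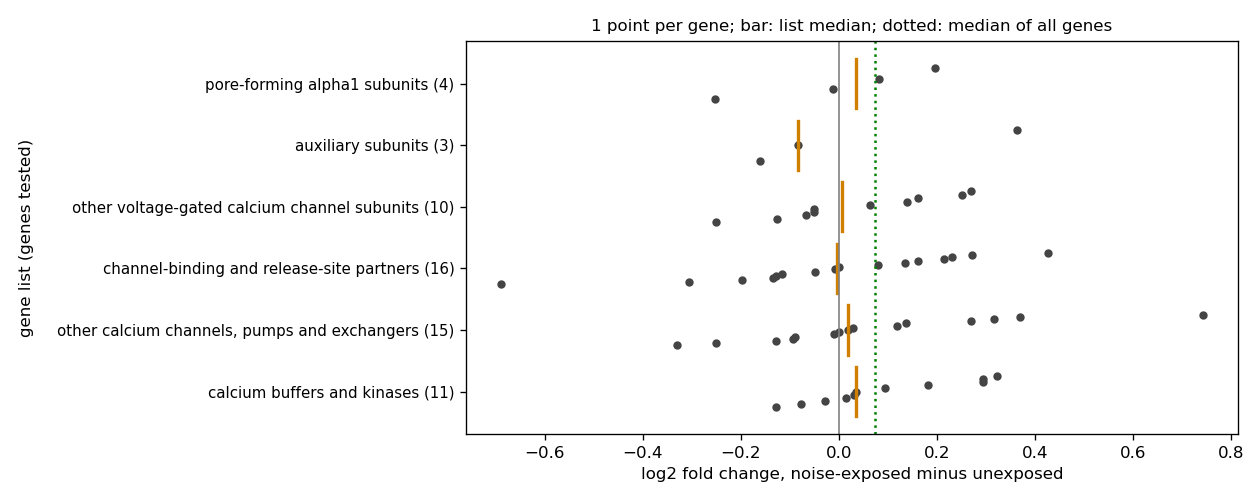
Log2 fold change (horizontal axis, noise-exposed minus unexposed) of the brightest tested probe set of each gene, by list (vertical axis, with the number of genes tested); bars are list medians and the dotted line is the median of all genes, 0.073. The points farthest from 0 are Slc8a1 at 0.74 and Rem2, which lay below the cutoff in noise-exposed mice.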

How the data were processed

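The deposited values are log2 signals of single probe sets. According to the authors' code file, all 6 arrays were processed in 1 run by RMA, which corrects background, equalizes the arrays' distributions by quantiles and summarizes probes by median polish, in R 2.6.1 with Bioconductor 2.1. Quantile normalization would hide a shift of most transcripts in 1 direction. Their deposited receptor table holds the same values for 1369 probe sets (largest difference 5e-06), and their deposited 17-array table gives a mean log2 signal and a p-value, Bonferroni corrected, for a mean above 5.1. RNA input was 8 to 21 ng per mouse per the labels, and was amplified before hybridization; the number of arrays limits the precision.

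Probe sets were named from the platform annotation, with symbols updated through Entrez IDs (34754 of 34958 probe sets with 1 symbol matched); 932 had several and 9211 none, and neither kind was named. The 64 control probe sets were left out. Probe sets above the authors' cutoff on at least 3 of 6 arrays were fitted in limma 3.58.1 (R 4.3.3) with a two-sided test (adjusted p under 0.05 over all 25200), without covariates, and tested on simulated data. For gene counts the tested probe set with the highest mean over the 6 arrays stood for a gene. Signals of different probe sets also reflect how well their probes bind, so "brightest" describes the signal and not the amount of RNA. Named genes were every member, up to 4 genes per other list by lowest unadjusted p, and the 4 genes most like the brightest member; those like Cacna1b were added later. Members and lists were chosen with earlier results of these data known. Alternatives covered normalization, filter, covariates, replicate block, subsets, each array left out and the choice of probe set.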

Additional observations from a re-analysis of the deposited data

How the results depend on the processing

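No calcium channel probe set was called under any of the 16 alternative fits, with a lowest adjusted p of 0.315 for a named probe set. Calls over the whole array were 0, except for 3 on the first dissection day alone and, with 1 array left out, 0 to 15, the 15 without unexposed replicate 2. Detection on all arrays held for 14 probe sets, 14 to 15 with 1 array left out, and 10 at a cutoff of 5.1, where Cacna1b is not detected on every array. The count of tested probe sets whose groups did not overlap was 4 with no filter, where more probe sets are tested, 10 on the first day alone and 6 for females alone, and 3 to 5 with 1 array left out. These alternatives for the non-overlapping probe sets, and list sums without the brightest gene, were chosen after seeing the data. Signs turned, with no call in any case and the cause not tested, for Cacna1b with the day as a covariate or on the first day alone (0.47 each), for Cacna1c with sex as a covariate or for females alone (-0.38 each), for Cacna1d with medians subtracted (0.022) and by day (0.038 each), for Cacna2d1 by day (0.041 each) and for Cacnb4 by day (0.032 each). Another probe set turned the sign for Cacna1a (-0.16), Cacna1b (0.50), Cacna2d1 (0.043), Cacna2d2 (-0.047) and Cacnb4 (0.010). With 1 array left out the log2 fold change ran from -0.61 to 0.18 for Cacna1b, -0.11 to 0.31 for Cacna1c, -0.038 to 0.017 for Cacna1d, -0.44 to 0.048 for Cacna2d1 and -0.14 to -0.0061 for Cacnb4. The median over the genes was 0.16 by day. The replicate numbers name mice of different litters and do not pair them (correlations of same-numbered deviations 0.094, 0.025 and -0.038); with the replicate block 0 probe sets were called over the array and 0 among the members. Values by day or sex rest on 1 unexposed mouse.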
